A study of Mus musculus with 10 samples.

Results

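Telomerase and shelterin are the enzyme and the protein complex that maintain and shield chromosome ends, and 10 genes that encode their proteins were followed here through 5 populations of mouse small-intestinal crypt cells. The genes are Tert, Dkc1, Nhp2, Nop10 and Gar1 for telomerase, and Terf1, Terf2, Tinf2, Pot1a and Acd for shelterin. They were taken by name from the 35006 named rows of the count tables, and all 10 were found once in each of the 10 libraries. All 10 also passed the filter on low counts, so every gene was tested in every comparison.

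Telomerase adds telomeric repeats to chromosome ends by copying an RNA template. Tert is the reverse transcriptase. Dkc1, Nhp2, Nop10 and Gar1 form the protein core that binds the H/ACA type of RNA, to which the telomerase RNA belongs, and the same 4 proteins serve the many H/ACA RNAs that guide pseudouridylation of ribosomal RNA. Dkc1 is the pseudouridine synthase of this core. In shelterin, Terf1 and Terf2 bind double-stranded telomeric DNA, Pot1a binds the single-stranded overhang, Acd (TPP1) tethers Pot1a and recruits telomerase, and Tinf2 (TIN2) joins the DNA-binding subunits to Acd. In the intestine, telomerase activity is known from crypts, where stem and progenitor cells divide.

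The cells came from EF1a-OSCAR mice of the strain C57BL6/J. The OSCAR reporter, driven by the EF1a promoter from the Rosa26 locus, was expressed in all tissues after a germline Vasa-Cre had removed its stop cassette, so all 5 populations carry the same alleles and none was treated. OSCAR is the ratio of VeN90, a yellow fluorescent protein that loses its fluorescence when CDK9 phosphorylates a peptide within it, to the red protein mCherry, and CDK9 is the kinase that phosphorylates Ser2 of the RNA polymerase II tail. A high ratio therefore marks low kinase activity, and EF1a high or low marks the level of the reporter itself. Live EpCAM-positive cells were sorted into P1 (OSCARlow EF1alow), P2 (OSCARhigh EF1alow), P3 (OSCARlow EF1ahigh), P4 (OSCARmed EF1alow) and P5 (OSCARmed EF1ahigh), with 10000 cells and 2 replicates per population. The study calls the replicates biological. The age and sex of the mice are not given in the sources used here, nor how many mice each replicate came from, so p-values measure the spread between these libraries.

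Between 3857612 and 6485823 reads were counted on genes per library, and 3 counts, taken as the floor of detection, correspond to between 0.463 and 0.778 CPM, the count per 1e6 counts of the library. The libraries labelled P3 stood apart, with 59.2% and 36.1% of counts on mitochondrially encoded genes against 1.04% to 5.19% in the other 8. The study's text assigns secretory cell markers to P3, whereas the deposited libraries that carry them are labelled P2. Levels in CPM from here on use library sizes scaled by the trimmed mean of M values (TMM), so they are not shares of a library's counts. The summed level of 14 such markers was 373626 and 488492 CPM in the libraries labelled P2 and 3016 and 3603 CPM in those labelled P3. The text also places Tert and Krt19 in P2, whereas among these 2 populations the libraries labelled P3 had the higher level of both. Krt19 was highest in P3 (2668 and 1632 CPM). For Tert the means of P4 and P5 (11.6 and 8.95 CPM) exceeded that of P3 (8.16 CPM), so neither P2 nor P3 had its highest mean. The labels were kept, each direction given for P2 or P3 rests on them, and differences among P1, P4 and P5 do not. The epithelial markers Epcam, Cdh1, Krt8, Krt18, Krt19 and Cldn7 were all detected in all 10 libraries.

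The telomerase genes that moved together lie on different chromosomes. In the NCBIM37 (mm9) assembly Tert is at chr13:73764449-73786489 on the plus strand, Dkc1 at chrX:72341193-72355116 on the plus strand, Nhp2 at chr11:51433237-51437216 on the plus strand, Nop10 at chr2:112102083-112103426 on the plus strand and Gar1 at chr3:129527830-129534314 on the minus strand. The shelterin genes are at chr1:15795739-15833551 on the plus strand (Terf1), and on the minus strand at chr8:109593300-109620447 (Terf2), chr14:56295455-56300654 (Tinf2), chr6:25693737-25759246 (Pot1a) and chr8:108222058-108224995 (Acd). RefSeq promoters were at hand for 9 of the 10, Terf1 being the exception. The 250 bases before the RefSeq start (GRCm38.p6), each found once in NCBIM37, are shown for 3 genes whose levels moved together and whose window held no annotated exon, namely Tert (chr13:73764109-73764358, plus strand), Dkc1 (chrX:72340943-72341192, plus strand) and Gar1 (chr3:129534315-129534564, minus strand). Capitals mark matches to the GC box GGGCGG or to the Ets core CCGGAAG on either strand.
Tert promoter: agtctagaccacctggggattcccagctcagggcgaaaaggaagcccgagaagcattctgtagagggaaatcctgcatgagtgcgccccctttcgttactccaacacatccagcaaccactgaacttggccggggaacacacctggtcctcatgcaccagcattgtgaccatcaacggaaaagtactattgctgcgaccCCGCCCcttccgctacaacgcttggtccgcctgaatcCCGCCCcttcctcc
Dkc1 promoter: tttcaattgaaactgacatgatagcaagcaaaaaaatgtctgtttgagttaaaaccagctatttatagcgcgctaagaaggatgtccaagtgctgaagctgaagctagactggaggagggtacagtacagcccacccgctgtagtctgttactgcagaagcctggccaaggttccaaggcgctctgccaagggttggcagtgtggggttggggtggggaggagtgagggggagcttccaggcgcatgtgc
Gar1 promoter: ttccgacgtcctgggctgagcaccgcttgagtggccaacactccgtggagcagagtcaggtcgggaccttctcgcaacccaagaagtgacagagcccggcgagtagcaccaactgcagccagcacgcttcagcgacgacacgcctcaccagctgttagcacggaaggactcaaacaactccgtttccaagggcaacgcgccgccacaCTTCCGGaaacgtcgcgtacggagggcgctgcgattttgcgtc

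The Tert window held 2 GC boxes, 51 and 14 bases before the start, and the Gar1 window held 1 Ets core, 43 bases before it. The Dkc1 window held neither motif. The E-box CACGTG, searched in the same way, was in none of the 9 windows. Among 27025 mouse promoter windows of the same length, 32.9% held a GC box, 7.05% the Ets core and 6.05% the E-box. A match is a run of letters only, and none of the 3 motifs was in all 3 windows shown.

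Tert was expressed at a low level that differed between populations. The P1 libraries held 15 and 16 counts, those of P2 5 and 7, those of P3 14 and 40, those of P4 100 and 110, and those of P5 98 and 63. After scaling by the trimmed mean of M values (TMM), its level was 2.54 and 2.68 CPM in P1, 1.52 and 1.56 CPM in P2, 7.43 and 8.88 CPM in P3, 12.3 and 10.9 CPM in P4, and 11.2 and 6.67 CPM in P5. All 4 libraries of P4 and P5, and both of P3, thus lay above all 4 of P1 and P2. The order of the means was P4, P5, P3, P1 and P2, in which P4 and P5 overlapped, P5 and P3 overlapped, and P3, P1 and P2 were separate. The places of P2 and P3 in this order rest on the labels doubted above. The counts set the precision, since the exact binomial 95% interval ran from 0.495 to 3.56 CPM in P2 replicate 1, against 8.97 to 13.1 CPM in P4 replicate 2, and it covers counting error only. In RNA from bulk cells, fewer cells that express a gene cannot be told apart from less RNA of it per cell. CPM is also relative to the other RNA of a library, so these levels are not amounts per cell. The study measured RNA content per cell and found it lowest in its P2. TMM factors ran from 0.496 in P3 replicate 1 to 1.56 in P4 replicate 2.

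The core protein Dkc1 followed the same order of high and low populations at higher counts. Its level was 19.3 and 15.9 CPM in P1, 17.4 and 12.5 CPM in P2, 54.7 and 78.2 CPM in P3, 60.9 and 63.4 CPM in P4, and 62.1 and 64.1 CPM in P5. P1 and P2 overlapped, P3, P4 and P5 overlapped, and the lowest library of the second group was well above the highest of the first. Nhp2, the RNA-binding partner in the core, had 17.1 and 11.9 CPM in P1, 12.2 and 11.8 CPM in P2, 35 and 62.8 CPM in P3, 38.7 and 54.1 CPM in P4, and 42.5 and 53.0 CPM in P5. It split the libraries into the same 2 sets, with a wider spread between the P3 replicates.

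Gar1, the subunit that joins the core last during its maturation, had 4.07 and 5.35 CPM in P1, 11.3 and 4.91 CPM in P2, 20.7 and 18.6 CPM in P3, 20.8 and 22.3 CPM in P4, and 21.1 and 22.6 CPM in P5. It was the 1 gene of the 10 for which all 4 libraries of P4 and P5 exceeded all 6 of the others, a pattern held by 2.08% of the 13706 genes tested. Nop10, the smallest core protein, had 15.6 and 16.7 CPM in P1, 41.8 and 19.2 CPM in P2, 43.5 and 59.5 CPM in P3, 33.5 and 42.0 CPM in P4, and 31.4 and 40.4 CPM in P5. P2 replicate 1 set Nop10 apart from the other 4 genes, since that library lay among P4 and P5 while P2 replicate 2 lay near P1.

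**Figure D1:**
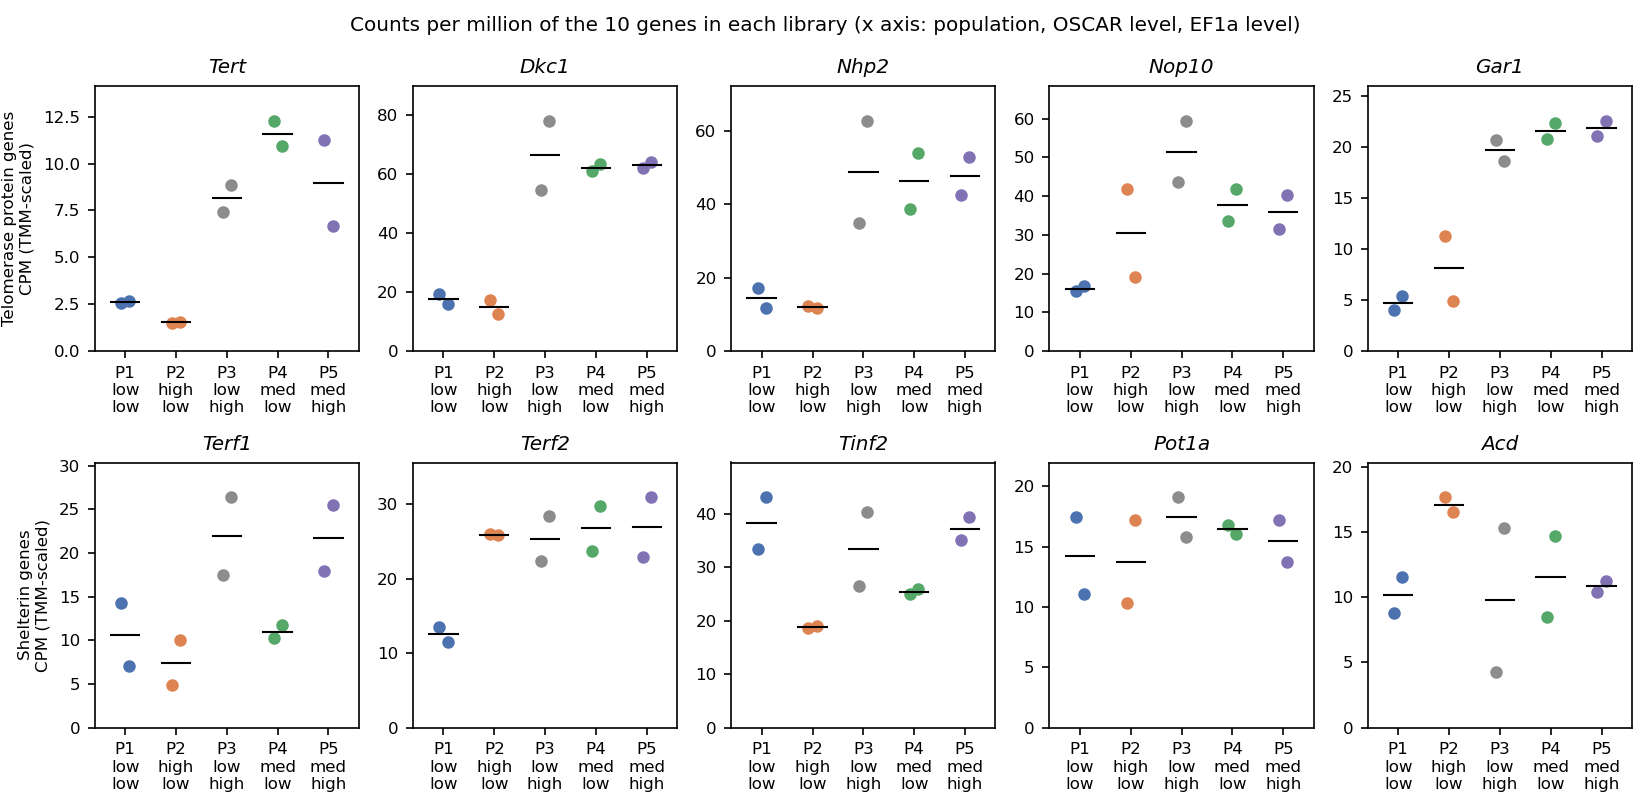
Level of each of the 10 genes (y axis, TMM-scaled CPM, from 0) in each library by population (x axis, with OSCAR and EF1a level), where points are the 2 libraries and bars their mean. Tert, Dkc1, Nhp2 and Gar1 are high in all libraries of P3, P4 and P5 and low in those of P1 and P2, and the shelterin genes in the lower row follow no common order.

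Of the 10 genes, 4 differed over the 5 populations, against 36.3% of all genes tested, and all 4 encode telomerase proteins. edgeR's quasi-likelihood F test gave adjusted p-values of 0.000387 for Dkc1, 0.00169 for Nhp2, 0.00221 for Tert and 0.00345 for Gar1. Nop10 had an adjusted p of 0.0277 and did not pass 0.01 in this edgeR test, nor did any of the 5 shelterin genes. Of the 10 genes, 4 had all P4 and P5 libraries above all P1 and P2 libraries (16.1% of all genes), and 6 had both P3 libraries above all of P1 and P2 (15.7% of all genes), namely the 5 telomerase genes and Terf1. Without the P3 libraries, 5 of the 10 genes passed, near the 48.1% of all genes.

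In P1 against P4, the EF1alow cells with low and medium OSCAR, 4 of the 10 genes were lower in P1 and none was higher, against 9.44% and 14% of all genes (23.4% in either direction). Gar1 was 4.56-fold lower (log2 fold change -2.19, SE 0.38, adjusted p = 0.00253 by edgeR), Tert 4.42-fold lower (-2.14, SE 0.41, adjusted p = 0.0037), Dkc1 3.53-fold lower (-1.82, SE 0.24, adjusted p = 0.00116) and Nhp2 3.2-fold lower (-1.68, SE 0.33, adjusted p = 0.00406). Nop10 had a log2 fold change of -1.22 (SE 0.35, adjusted p = 0.021), short of the threshold. The median over the 5 telomerase genes was -1.82, over the 5 shelterin genes -0.19, and over all genes -0.06. The count rests on both P4 libraries and both P1 libraries, since it fell to 0 without either P4 library and to 1 without either P1 library. The calls over all genes fell with it, to 0% without either P4 library and to 5.78% and 8.1% without a P1 library, while the 4 log2 fold changes stayed at -1.42 or below.

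P1 also held markers of other cells. The summed level of 14 lymphocyte markers was 1321 and 375 CPM in P1, with 13 of 14 detected in each library and 1 B cell marker at 0 in each (Cd79a in replicate 1, Ms4a1 in replicate 2), against 2.75 to 6.76 CPM in P4 and P5, where Cd3e had at most 2 counts. The 12 enterocyte markers summed to between 40522 and 48745 CPM in P1 and to between 4481 and 20651 CPM in P4 and P5. The 14 secretory markers summed to 17128 and 52067 CPM in P1 and to between 3664 and 11590 CPM in P4 and P5. Of these 14, however, only 5 had a positive log2 fold change in P1 against P4. The part of these cells in the lower telomerase levels of P1 was not tested.

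In P2 against P4, the EF1alow cells with high and medium OSCAR by label, 3 of the 10 genes were lower in P2 and none was higher, against 6.31% and 8% of all genes (14.3% in either direction). This comparison shares its P4 libraries with the last. Tert was 7.42-fold lower (log2 fold change -2.89, SE 0.45, adjusted p = 0.00218 by edgeR), Dkc1 4.19-fold lower (-2.07, SE 0.25, adjusted p = 0.00082) and Nhp2 3.86-fold lower (-1.95, SE 0.34, adjusted p = 0.00338). Gar1 had a log2 fold change of -1.44 (SE 0.37, adjusted p = 0.0194) and Nop10 of -0.32 (95% interval from -1.10 to 0.46), both short of the threshold. The count was 3 without the P3 libraries (20.8% of all genes), and it fell to 1 without P2 replicate 2 or without either P4 library and to 2 without P2 replicate 1, when 2.21% to 4.3% of all genes were called.

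Against the average of the other 4 populations, in which the same P2 libraries serve, P2 was lower for 3 of the 10 genes, against 10.7% of all genes (27% in either direction), by 4.41-fold for Tert, 3.12-fold for Dkc1 and 2.96-fold for Nhp2 (edgeR adjusted p of 0.00264, 0.000387 and 0.0025). Without the P3 libraries 4 genes passed in this comparison (29.8% of all genes), and without either P2 library 1 did (11.8% and 13%). These P2 libraries are those with the secretory markers given above, whose part in the result was not tested.

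P2 and P1, the populations with the lowest telomerase levels, were compared directly. None of the 10 genes passed in edgeR, against 29.1% of all genes, while 3 had an unadjusted p under 0.05 and DESeq2 called 2, against 37.5% of all genes. The telomerase genes did not share a sign here, with log2 fold changes in P2 against P1 of -0.75 for Tert (95% interval from -1.83 to 0.34), -0.25 for Dkc1 (from -0.82 to 0.33), -0.27 for Nhp2 (from -1.05 to 0.50), 0.90 for Nop10 (from 0.10 to 1.71) and 0.75 for Gar1 (from -0.14 to 1.65). The 2 genes nearest the threshold belong to shelterin. Terf2 had a log2 fold change of 1.04 (SE 0.27, edgeR adjusted p = 0.0113), and Tinf2 of -1.03 (SE 0.26, edgeR adjusted p = 0.01002), so they pointed in opposite directions. DESeq2, and edgeR without the P3 libraries, each called these 2.

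**Figure D2:**
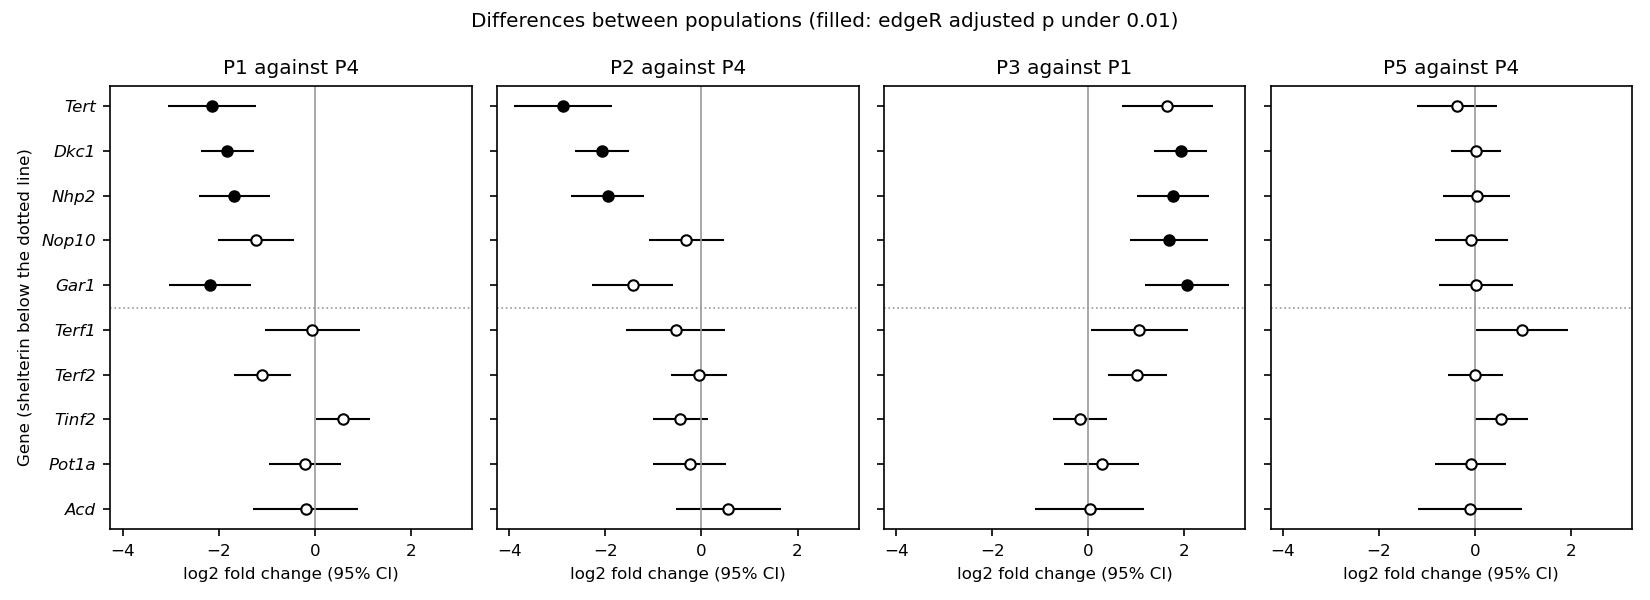
Log2 fold change (x axis, with 95% interval from the edgeR fit) of each gene (y axis) in P1 against P4, P2 against P4, P3 against P1 and P5 against P4, with filled points for an adjusted p under 0.01. The filled points all belong to telomerase genes, and in P5 against P4 the intervals of all 5 telomerase genes span 0.

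By label, P3 and P1 share low OSCAR and differ in EF1a level. Of the 10 genes, 4 were higher in P3 and none was lower, against 8.01% and 7.54% of all genes (15.6% in either direction). Gar1 was 4.15-fold higher (log2 fold change 2.05, SE 0.39, adjusted p = 0.00493 by edgeR), Dkc1 3.8-fold higher (1.92, SE 0.25, adjusted p = 0.0016), Nhp2 3.42-fold higher (1.77, SE 0.33, adjusted p = 0.00476) and Nop10 3.21-fold higher (1.68, SE 0.36, adjusted p = 0.00802). Tert had a log2 fold change of 1.65 (SE 0.42, edgeR adjusted p = 0.0165). This count was 0 when only the 4 libraries of P1 and P3 were fitted and 0 without either P1 library, 1 without P3 replicate 2, and 2 whichever 1 library of P4 or P5 was left out. The share of all genes called was 0% in the fit of 4 libraries, 0% and 2.16% without a P1 library, 8.7% without P3 replicate 2 and 8.4% to 9.87% without a P4 or P5 library. Over these fits and the other alternatives the log2 fold change stayed between 1.66 and 2.16 for Dkc1, 1.3 and 2.13 for Nhp2, 1.46 and 1.89 for Nop10, and 1.86 and 2.29 for Gar1.

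P3 and P2 differ in both labels, and 3 genes were lower in P2, by 5.28-fold for Tert, 4.5-fold for Dkc1 and 4.13-fold for Nhp2 (edgeR adjusted p of 0.00406, 0.000397 and 0.00196), against 10.6% of all genes (21% in either direction). That count was 0 when only these 4 libraries were fitted (9.21% of all genes called), and it was 1 without P2 replicate 2 (10.4%). Against the average of the other populations, Dkc1 alone was called higher in P3, by 2.1-fold (log2 fold change 1.07, SE 0.18, edgeR adjusted p = 0.00925), against 1.61% of all genes (2.11% in either direction), and that call was lost whichever 1 of the 10 libraries was left out (0.27% to 1.75% of all genes called). The mitochondrial shares of the P3 libraries and the 230 CPM of lymphocyte markers in P3 replicate 1 (11 of 14 detected, Cd8b1, Cd79a and Ms4a1 at 0) stand beside these values, and their part was not tested. P3 replicate 2 held 4.66 CPM of those markers and 36.1% of counts on mitochondrially encoded genes, against 59.2% in P3 replicate 1.

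Within the medium OSCAR cells, EF1a level did not go with a difference that could be called. In P5 against P4 edgeR called none of the 10 genes and 0% of all genes (350 of 13706 had an unadjusted p under 0.05), while DESeq2 called none of the 10 and 30 genes in all. One gene, Terf1, had an unadjusted p under 0.05 (0.047 in the edgeR fit), with a log2 fold change of 0.98 (95% interval from 0.02 to 1.95) and 18.0 and 25.5 CPM in P5 against 10.3 and 11.7 CPM in P4. The 95% intervals for Dkc1 (from -0.50 to 0.54) and Nhp2 (from -0.66 to 0.74) did not reach that size in either direction. For Tert the interval ran from -1.21 to 0.46. P3 and P5 are, by label, the EF1ahigh cells with low and medium OSCAR. In P3 against P5 edgeR called none of the 10 genes and 0% of all genes (1587 had an unadjusted p under 0.05). None of the 10 had an unadjusted p under 0.05, and DESeq2 called none of the 10 and 40 genes in all. The log2 fold changes of the telomerase genes lay between -0.16 and 0.53, and that of Tert was -0.12 (95% interval from -1.0 to 0.76).

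The low against medium OSCAR difference was thus set side by side in EF1alow cells (P1 against P4) and, by label, in EF1ahigh cells (P3 against P5). The difference between the 2 was tested itself. It was positive for all 5 telomerase genes, with log2 values of 2.02 for Tert, 1.90 for Dkc1, 1.73 for Nhp2, 1.76 for Nop10 and 2.03 for Gar1. None passed 0.01 in edgeR, against 0.81% of all genes, since the adjusted p-values ran from 0.0116 (Dkc1) to 0.0403 (Nop10). Of the 10 genes, 6 had an unadjusted p under 0.05, as had 4655 of all 13706 genes, and DESeq2 called 2, against 15% of all genes. Among shelterin genes the same quantity lay between -0.72 (Tinf2) and 1.02 (Terf2).

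The shelterin genes had no common pattern. Terf2, which shields chromosome ends from being joined, had 13.6 and 11.5 CPM in P1, 25.9 CPM in both libraries of P2, 22.3 and 28.4 CPM in P3, 23.7 and 29.8 CPM in P4, and 22.9 and 30.9 CPM in P5. Its mean was lowest in P1, and the log2 fold change of -1.09 in P1 against P4 (SE 0.26) had an adjusted p of 0.01003 in edgeR, just outside 0.01. It passed without the P3 libraries. Tinf2, the hub of the complex, had 33.4 and 43.2 CPM in P1, 18.6 and 19.0 CPM in P2, 26.5 and 40.4 CPM in P3, 24.9 and 26.0 CPM in P4, and 35.1 and 39.4 CPM in P5. By mean it was lowest in P2 and highest in P1, the population lowest in Terf2. Terf1 had 14.2 and 7.03 CPM in P1, 4.88 and 10.0 CPM in P2, and 17.5 and 26.4 CPM in P3, beside the P4 and P5 values given above. It was not called in P3 against P1 (edgeR adjusted p = 0.0939) or in P5 against P4.

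Pot1a had the narrowest range of the 10 genes, from 10.4 to 19.1 CPM over all libraries, and its 5 populations overlapped one another in the order of their means. Acd had 8.81 and 11.5 CPM in P1, 17.7 and 16.5 CPM in P2, 4.25 and 15.3 CPM in P3, 8.48 and 14.7 CPM in P4, and 10.4 and 11.2 CPM in P5. The mean of Acd was highest in P2, although its log2 fold change in P2 against P1, 0.75, had a 95% interval from -0.37 to 1.86. The lowest Acd value, in P3 replicate 1, came from 8 counts.

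Levels of different genes were compared per length, as CPM per kilobase of annotated exon. Tert was the lowest of the telomerase genes in all 10 libraries by this scale, with a median of 2.06 CPM per kilobase, and Gar1 (11.5), Dkc1 (14.0), Nhp2 (32.2) and Nop10 (33.3) were above it. Nop10 and Nhp2 exchanged places, Nop10 being higher in 4 of 10 libraries, whereas Nhp2 was above Dkc1 in all 10 and Dkc1 above Gar1 in 9. Per length, Tert stood at 10.5 to 24.2 units per 100 units of Dkc1 in the same library, a range in which the low populations P1 (15.8 and 20.3) and P2 (10.5 and 15.0) were not separate from P4 (24.2 and 20.7) and P5 (21.7 and 12.5). Of the shelterin genes, Pot1a was lowest in level at a median of 1.90 CPM per kilobase and below Terf2 (5.39) in all 10 libraries, and Tinf2 was highest at 10.1.

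The balance between the 2 groups was also taken within each library, where scaling between libraries cancels out. The counts of the 5 telomerase genes, divided by those of the 5 shelterin genes, gave ratios of 0.671 and 0.623 in the P1 libraries, 1.09 and 0.564 for P2, 1.80 in both for P3, 1.97 and 1.96 for P4, and 1.62 and 1.54 for P5. The 6 libraries of P3, P4 and P5 were above the 4 of P1 and P2, and the P4 pair was above the P5 pair. Without Nop10, which carried the high value of P2 replicate 1, the ratio was 0.348 to 0.547 in P1 and P2 and 1.21 to 1.57 in P3 to P5. The summed shelterin level was 77.4 to 88.5 CPM in P1 and P2 and 84.3 to 126 CPM in P3 to P5, so these ranges overlapped, while the summed telomerase level was 50.0 to 84.1 CPM and 161 to 228 CPM. No test was made of the ratio, which sums over genes that were chosen with earlier results of these data known.

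**Figure D3:**
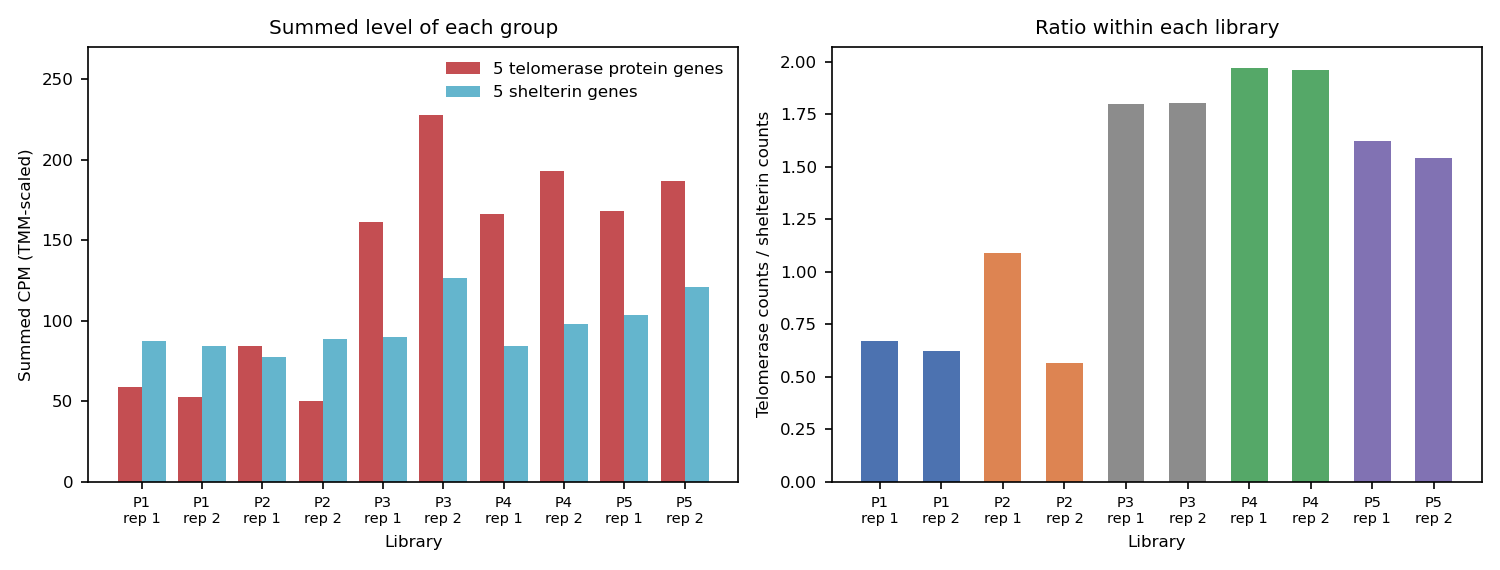
Left, summed level (y axis, TMM-scaled CPM) of the 5 telomerase genes (red) and the 5 shelterin genes (blue) in each library (x axis). Right, telomerase counts divided by shelterin counts in each library, from 0.564 in P2 replicate 2 to 1.97 in P4 replicate 1, with all P3, P4 and P5 libraries at 1.54 or above.

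Over the 10 libraries, the log2 CPM of the 5 telomerase genes correlated with one another with Pearson's r from 0.58 to 0.98 (10 pairs, median 0.86). The highest value was that of Dkc1 with Nhp2, and the lowest that of Tert with Nop10. Shelterin genes correlated with one another with r from -0.52 to 0.59 (10 pairs, median 0.06), and pairs across the 2 groups ranged from -0.36 to 0.78 (25 pairs, median 0.39). These are descriptions over 10 libraries that share 5 populations and their depth, and the libraries fall into high and low sets, and r includes the gap between those sets.

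**Figure D4:**
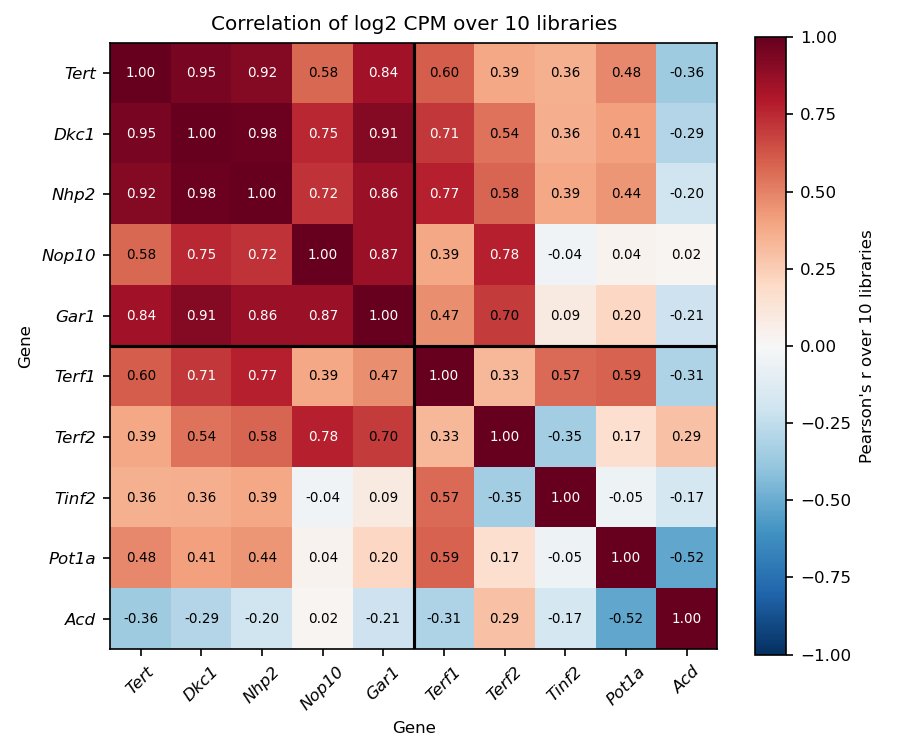
Pearson's r of log2 CPM over the 10 libraries for each pair of genes (both axes), from red (1) to blue (-1), with black lines between the telomerase and shelterin genes. Values among the telomerase genes run from 0.58 to 0.98, and those among the shelterin genes from -0.52 to 0.59.

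The genes most like Tert over the 10 libraries by the same measure were Aqp4, a water channel (r = 0.98), Fastkd3 (0.98), Mtif2, a mitochondrial translation initiation factor (0.97), Pcsk6, a proprotein convertase (0.97) and Als2cl (0.96). Dkc1 came 17th for Tert, with r = 0.95. Aqp4 had 11.2 and 11.5 CPM in P1, 5.49 and 7.81 CPM in P2, 34.0 and 58.8 CPM in P3, 95.7 and 69.8 CPM in P4, and 77.6 and 69.8 CPM in P5. For Dkc1 they were Mrpl3, a mitochondrial ribosomal protein, Rpl3-ps1, a pseudogene whose counts are uncertain because it resembles its parent gene, Rps3 and Rpl22, proteins of the cytosolic ribosome, and Exosc8, a subunit of the RNA exosome, all at r = 0.99. Nhp2 came 17th and Tert 201st for Dkc1. Rps3 had 364 to 435 CPM in P1, 346 and 444 CPM in P2, and 845 to 1044 CPM in the libraries of P3 to P5.

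Other genes of the pathway were described from fixed lists. Of 15 genes for the assembly and trafficking of telomerase, 4 differed over the 5 populations, a smaller share than the 36.3% of all genes. Nolc1, a nucleolar chaperone of H/ACA particles, had means of 26.5 CPM ± 5.36 in P1, 51.4 CPM ± 13.5 in P2, 100.2 CPM ± 31.3 in P3, 101 CPM ± 5.62 in P4 and 92.4 CPM ± 0.319 in P5 (SD, n = 2). Ruvbl2, an ATPase used in the assembly of such particles, had 23.7 CPM ± 3.6 in P1 and 27.5 CPM ± 2.02 in P2 against 64.3 CPM ± 12.2 to 72.1 CPM ± 27.7 in the others, and the chaperone Hsp90ab1 had 663 CPM ± 47.4 in P1 and 717 CPM ± 1.09 in P2 against 1615 CPM ± 158 to 1805 CPM ± 304. These 3 had the high and low populations of Dkc1. Papd5, a polymerase that adds adenosines to telomerase RNA and marks it for trimming or decay, was high in P1 only. It had 107 CPM ± 0.723 there against 33.3 CPM ± 12.2 (P3) to 49.0 CPM ± 9.84 (P2) in the other populations.

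In P1 against P4, Nolc1 (log2 fold change -1.94, SE 0.28), Hsp90ab1 (-1.44, SE 0.30) and Ruvbl2 (-1.44, SE 0.29) were lower and Papd5 (1.58, SE 0.25) was higher among these 15, with a list median of -1.29. The edgeR adjusted p was 0.00137 for Nolc1, 0.00539 for Hsp90ab1, 0.00488 for Ruvbl2 and 0.00198 for Papd5. Over all genes, 9.44% were called lower and 14% higher there. In P2 against P4 none of the 15 passed in edgeR (14.3% of all genes), and DESeq2 called 2 (23.3% of all genes). In P3 against P1, 2 were higher (Nolc1 and Ruvbl2) and 1 was lower (Papd5), against 8.01% and 7.54% of all genes. No member of the list passed in P5 against P4 or in P3 against P5 in edgeR, as for all genes.

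Of 15 other telomere factors, 1 differed over the 5 populations, where 36.3% of all genes did. The list includes Pot1b and Terf2ip (RAP1), shelterin proteins outside the 5 members, both named after their values were seen. Neither was called, with edgeR adjusted p of 0.472 and 0.351 over the 5 populations. Blm, a helicase that also acts at telomeres, had 1.77 CPM ± 0.342 in P2, 5.73 CPM ± 0.527 in P1, 10.8 CPM ± 5.48 in P3, 10.8 CPM ± 0.154 in P4 and 17.7 CPM ± 5.09 in P5 (SD, n = 2). It was 6.0-fold lower in P2 than in P4 (log2 fold change -2.58, SE 0.48, edgeR adjusted p = 0.00431), the only called member of the list there. In P1 against P4 the only called member was Rif1, a telomere-binding and replication-timing protein, named after its values were seen, with a log2 fold change of -1.98 (edgeR adjusted p = 0.0057). Obfc1 (Stn1), a subunit of the complex that fills in the telomeric C-strand, also named after its values were seen, was 3.42-fold lower in P2 than the average of the others (log2 fold change -1.78, SE 0.37, edgeR adjusted p = 0.00466) and 3.64-fold lower than in P1 (-1.86, SE 0.43, edgeR adjusted p = 0.00693). Blm and Obfc1 were the 2 members called in P2 against the average (27% of all genes), and Obfc1 the only one in P2 against P1 (29.1%). The share of all genes called was 14.3% in P2 against P4 and 23.4% in P1 against P4. The list median in P1 against P4 was -0.16.

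A list of box C/D proteins, which build the other major class of guide particles for ribosomal RNA, and of other nucleolar proteins served as a comparison. Of these 10 genes, 9 differed over the 5 populations (36.3% of all genes). In P1 against P4, 7 of 10 were lower and none was higher (9.44% and 14% of all genes). The list median was -1.54, against -1.82 for the telomerase genes. Their summed level was 408 to 557 CPM in the libraries of P1 and P2 and 834 to 1271 CPM in those of P3 to P5. The libraries with high and with low sums of this list were those with high and with low Dkc1 levels.

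**Figure D5:**
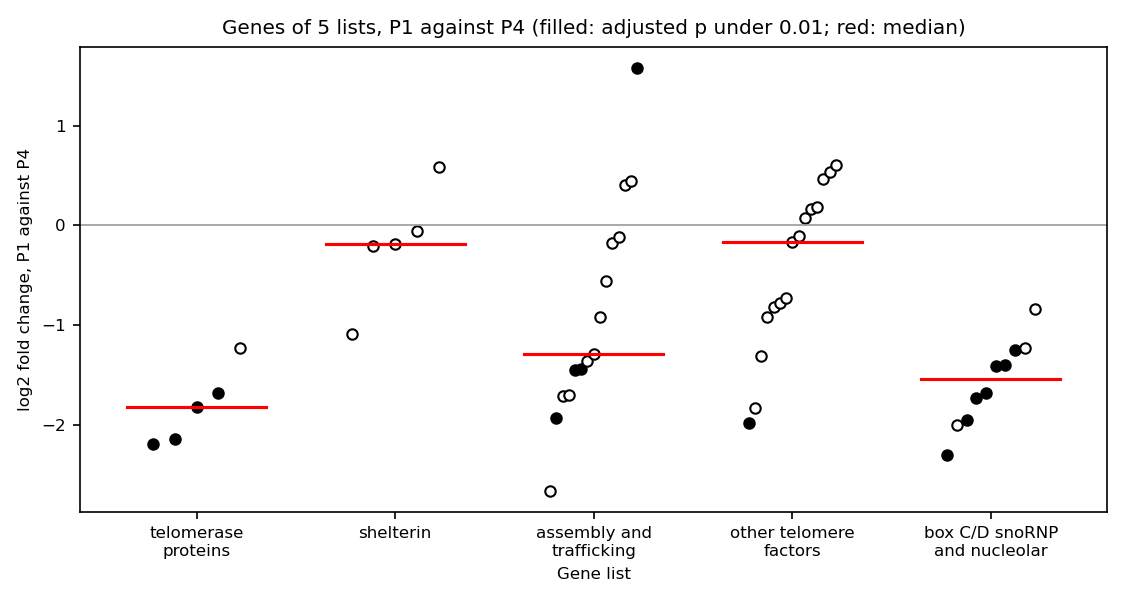
Log2 fold change in P1 against P4 (y axis) of each gene of 5 lists (x axis), with filled points for an edgeR adjusted p under 0.01 and red lines for list medians. The medians are -1.82 for telomerase proteins, -0.19 for shelterin, -1.29 for assembly and trafficking, -0.16 for other telomere factors and -1.54 for box C/D and nucleolar proteins.

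Markers of cell state were set beside the telomerase levels. The summed level of 17 cycling genes was 499 to 510 CPM in P1, 285 and 382 CPM in P2, 1178 and 2088 CPM in P3, 1180 and 1370 CPM in P4, and 1798 and 2824 CPM in P5, so it split the libraries as Dkc1 did. The summed level of 10 stem cell markers was 731 and 997 CPM in P1, 1271 and 1915 CPM in P2, 594 and 3103 CPM in P3, and 4405 to 7336 CPM in P4 and P5. The stem cell marker Lgr5 alone had 4.25 and 9.33 CPM in the P3 libraries, where Dkc1 and Tert were high, and 80.5 and 81.2 CPM in the P2 libraries, where both were low. It had 72 to 115 CPM in P4 and P5 and 9.7 and 10.5 CPM in P1. Of the 10 stem cell markers, 8 had a positive log2 fold change in P2 against P3 and the rest did not. In edgeR 3 were called higher and 0 lower, against 10.4% and 10.6% of all genes. The part of dividing or stem cells in the telomerase levels was not tested.

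Reads were counted without regard to strand, and 4 of the 10 genes share exon bases with a gene on the opposite strand, namely Dkc1 with Mpp1 (45 bases), Nhp2 with Rmnd5b (44), Tinf2 with Gmpr2 (232, or 7.84% of its exon bases) and Acd with Rltpr (21). Reads there cannot be assigned to a strand. No copy of 75 or more bases at 98% identity or above was found elsewhere in the genome for any of the 10 transcripts. The RNA template Terc was not analysed here, nor were Ctc1 and Ten1, and Stn1 was analysed under its older symbol Obfc1.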

How the data were processed

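Poly-A RNA of the 10 libraries was prepared with an unstranded TruSeq v2 kit. The authors mapped reads with TopHat 2.1.0 to mm9 and counted them on exons with HTSeq 0.11.2 without strand. The deposited values are raw counts per gene. Multi-mapped reads were not counted, and their alignments made up 11.6% to 41.7% of the entries that HTSeq tallied. A read with several alignments can enter that tally more than once, so this is not a share of reads. Of 35006 row names, 33643 are in GENCODE for NCBIM37, and 1 row without a name was dropped (at most 0.000596% of counts).

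From these counts, 206 rRNA gene names were removed, genes were filtered with filterByExpr (13706 left) and scaled by TMM, and the 5 population means were fitted over all 10 libraries with edgeR 4.0.16 in R 4.3.3 (residual df 5). Contrasts were tested by its quasi-likelihood test at a Benjamini-Hochberg adjusted p under 0.01. SEs were derived from F. The code was also run on simulated counts. The outcome is not reported here, so the share of true changes that it misses is not given. Copies were sought with blastn 2.17.0. Named genes were the 10 members, up to 4 called genes per list and the 5 genes most like Tert and Dkc1 by Pearson's r. A lymphocyte marker planned for its list is not reported here. Members and lists were chosen with earlier results of these data known. Alternatives covered scaling, filter, test (DESeq2 1.42.0), threshold, rRNA and mitochondrial genes, block, libraries fitted and each library left out.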

Additional observations from a re-analysis of the deposited data

How the results depend on the processing

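With 2 libraries per population, few degrees of freedom and 5 to 40 Tert counts in the libraries of P1, P2 and P3, calls near 0.01 move with the processing, and the cause was not tested. Over 18 called log2 fold changes of single genes and 312 refits, none turned sign and 73 no longer passed, most of them with a library left out. Of values short of the threshold, 3 log2 fold changes turned sign with a library left out, namely Tert in P3 against P5 (from -0.46 to 0.28, the latter without P5 replicate 1), Nop10 in P2 against P4 (from -1.01 to 0.12, the latter without P2 replicate 2) and Pot1a in P1 against P4 (from -0.57 to 0.046, the latter without P1 replicate 2).

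Counts of the 10 genes called moved as follows. At a threshold of 0.05, 8 were called over the 5 populations (57.9% of all genes), 2 in P3 against the average (12.8%), 2 in P2 against P1 (47.1%), 6 in P2 against P3 (37.3%) and 5 in the difference between the P3-P5 and P1-P4 differences (17.3%), a test added after the data were seen. Without the filter on low counts, the counts were 2 in P3 against the average (7.85% of all genes), 1 in P2 against P1 (25%) and 4 in that difference of differences (10.4%). DESeq2 called 2 in P2 against P1 (37.5% of all genes) and 2 in the difference of differences (15%). P3 against the average gave 0 with DESeq2 size factors (1.61% of all genes) and 0 without mitochondrial genes (1.43%), and P2 against P1 gave 1 without mitochondrial genes (28.5%) and 2 without the P3 libraries (37.8%). Fits of only the 2 populations compared gave 0 in P3 against P1 and 0 in P2 against P3. Removing mitochondrial genes moved the median of all genes in P1 against P4 from -0.06 to -0.26 (log2) and the share of calls that were higher from 59.7% to 46.9%, and 5 of the 10 genes were then called, all lower.

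With 1 library left out, the calls among these genes moved in most comparisons, and the share of all genes called moved too. Such calls therefore do not describe these genes alone, and effect sizes are given instead. The ranges of log2 fold change cover these refits and the other alternatives. In P1 against P4 they were -2.35 to -2.07 for Tert, -2.02 to -1.72 for Dkc1, -1.96 to -1.42 for Nhp2 and -2.44 to -2.00 for Gar1. In P2 against P4 they were -2.99 to -2.83 for Tert, -2.34 to -1.86 for Dkc1 and -2.19 to -1.70 for Nhp2. Where 1 library was left out, the lone library of that population was assumed to vary like the other populations.

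Replicate numbers are shared between populations, and deviations of same-numbered libraries correlated at -0.06 to 0.55 (9 of 10 pairs over 0.1). The numbers were not taken as pairs, since 1 pair was under 0.1 and the sources used here do not say what a number marks. With the replicate number as a block, 2 genes were called in P2 against P1 (33% of all genes), 1 in the difference of differences (4.33%), 5 in P1 against P4 (28.3%) and 4 in P2 against the average (29.6%).

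Of the lists, in P2 against P4 the assembly list gave 0 called in the edgeR fit (14.3% of all genes) and 3 without the filter (15.9%).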
